A study of Homo sapiens with 12 samples.

Results

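The mitochondrial ribosomal proteins were taken as every gene to which the array's platform annotation gave a symbol of MRPL or MRPS followed by a number, with letters after the number allowed and pseudogenes left out. The rule found 75 genes of the 19775 that the annotation names on the array, 48 MRPL genes of the large subunit and 27 MRPS genes of the small subunit by symbol. They were read by 140 of 54675 probe sets, 83 for the large and 57 for the small subunit. A probe set is a group of short oligonucleotides read together as 1 value, and some match several related transcripts. The cells were H929, an established human plasma cell myeloma line, profiled on Affymetrix U133 Plus 2.0 arrays in 4 groups of 3 arrays. The combination group received 1 µM tosedostat and 250 nM CHR-3996, the tosedostat group 1 µM tosedostat alone and the CHR-3996 group 250 nM CHR-3996 alone, each for 24 hours, and the fourth group was left untreated. CHR-3996 blocks histone deacetylases, and tosedostat, labelled Chr2797, blocks aminopeptidases, which release single amino acids from peptides. All 4 groups were the same line with no genetic alteration added, so every value describes 1 line only.

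The mitochondrial ribosome translates the few messenger RNAs of the mitochondrial genome, which encode core subunits of the respiratory chain and of ATP synthase. Its proteins are encoded in the nucleus, made by the cytosolic ribosome and imported, and they assemble on ribosomal RNAs transcribed inside the organelle. Some have counterparts in the bacterial ribosome and others are found only in mitochondria. In growing cells the nuclear genes for them are known to be driven by transcription factors of the ETS family, among them GABP, by YY1 and by NRF1, and myeloma cells are known to rely on mitochondrial respiration.

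Promoters of the genes with the largest fall under CHR-3996 (MRPL27) and under the combination (MRPL12), and of the gene with the largest rise under the combination (MRPS31), are shown because these genes mark the extremes of the response described below. Each is the RefSeq sequence of GRCh38.p14 from 250 bases before to 50 bases after the transcription start, printed on the strand of the gene, with matches to the ETS core CCGGAAG in capitals. The windows are chr17:50373135-50373434 on the minus strand for MRPL27, chr17:81703117-81703416 on the plus strand for MRPL12 and chr13:40771141-40771440 on the minus strand for MRPS31, and each holds the promoter and the start of the transcript.
MRPL27: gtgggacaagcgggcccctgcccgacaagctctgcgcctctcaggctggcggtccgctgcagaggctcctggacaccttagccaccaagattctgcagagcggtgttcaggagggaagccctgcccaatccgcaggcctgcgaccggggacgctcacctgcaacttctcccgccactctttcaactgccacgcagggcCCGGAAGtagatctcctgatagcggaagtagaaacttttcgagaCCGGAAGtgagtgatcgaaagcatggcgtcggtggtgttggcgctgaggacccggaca
MRPL12: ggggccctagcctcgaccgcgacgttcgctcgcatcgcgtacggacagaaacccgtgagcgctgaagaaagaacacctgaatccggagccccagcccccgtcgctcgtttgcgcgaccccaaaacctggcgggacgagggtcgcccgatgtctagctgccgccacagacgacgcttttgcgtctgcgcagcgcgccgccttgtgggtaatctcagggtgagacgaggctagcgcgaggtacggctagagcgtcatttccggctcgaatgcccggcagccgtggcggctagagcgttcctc
MRPS31: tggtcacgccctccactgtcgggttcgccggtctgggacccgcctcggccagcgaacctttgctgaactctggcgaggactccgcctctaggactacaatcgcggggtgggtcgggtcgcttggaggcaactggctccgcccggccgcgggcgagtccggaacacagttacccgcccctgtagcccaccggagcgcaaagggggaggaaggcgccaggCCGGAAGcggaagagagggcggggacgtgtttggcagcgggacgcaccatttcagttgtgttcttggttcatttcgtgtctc
The promoter of MRPL27 held 2 ETS cores and that of MRPS31 held 1, while that of MRPL12 held none of the 4 motifs searched on both strands, which were the ETS core, YY1 (AAGATGGCG), the NRF1 core (CGCATGCG) and the E-box (CACGTG). Promoter windows were listed for 41 of the 48 MRPL and 26 of the 27 MRPS genes, some with several starts whose windows can overlap, and none is shown for MRPS28. The ETS core was in 18 of 51 MRPL windows (35.3%) and 14 of 32 MRPS windows (43.8%), against 10.3% of all 35116 windows of the same length. The YY1 motif was in 15.7% and 12.5% of these windows, against 1.75% of all. The NRF1 core was in 3.92% and 3.12%, against 2.02% of all, and the E-box in 11.8% and 9.38%, against 7.26% of all. Over the windows of the genes tested on the array the shares were higher than over all windows, at 14.6% for the ETS core, 2.83% for YY1, 2.95% for the NRF1 core and 8.8% for the E-box. Genes of cytosolic ribosomal proteins held the ETS core in 38.6% of their windows. Among mitochondrial ribosomal protein genes, the ETS core was in 21 of 63 windows (33.3%) of those that fell under CHR-3996. It was in 11 of 20 windows (55%) of those that did not pass the test. For YY1 these shares were 14.3% and 15%, for the E-box 11.1% and 10%, and for the NRF1 core 4.76% and 0%. The windows are few and the differences were not tested.

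The 12 arrays were compared before any test. Replicates of a group correlated at 0.978 to 0.983 over the 36395 probe sets tested. CHR-3996 replicate 1 stood apart for the mitochondrial ribosomal proteins: relative to the untreated mean of each gene, the median of the 75 genes was -0.94 on that array on the log2 scale, against -0.49 and -0.54 on replicates 2 and 3, so results that use this array are also given without it. The medians were -0.46, -0.42 and -0.40 on the combination arrays and lay between -0.02 and 0.04 on the tosedostat and untreated arrays. Array medians over all probe sets were 5.26 to 5.31 in the combination, 5.04 to 5.07 under tosedostat, 5.24 to 5.29 under CHR-3996 and 5.0 to 5.07 in untreated cells. The difference between the 3′ and 5′ control probe sets of actin, a sign of RNA integrity and of how far amplification reached, was 1.08 to 1.38 in the combination, 1.97 to 2.19 under tosedostat, 1.43 to 1.76 under CHR-3996 and 1.98 to 2.32 in untreated cells, while that of GAPDH was 0.27 to 0.52 throughout. It was lower in the same groups in which the genes described here were lower, and its part in the results was not tested. Of 12 markers of plasma cells and of H929, 11 were above the 40th percentile of every array, CD79A being the exception. Of the markers of T cells 2 of 4, of monocytes 1 of 3 and of stromal cells 2 of 3 passed that limit on every array, and the mean over each of these lists lay between 3.37 and 5.76 on every array, with the T cell marker CD8A lowest at 0.36 to 1.68 as group means. The monocyte marker LYZ moved with the same groups, averaging 4.88 in the combination and 4.87 under CHR-3996, against 3.02 under tosedostat and 2.84 in untreated cells, and it did not pass the 40th percentile on every array. Of 3 red cell markers only HBB had a probe set of its own, and it averaged 8.06 in the combination and 8.01 under CHR-3996, against 6.27 under tosedostat and 6.34 in untreated cells. The mean over the plasma cell and H929 list was 10.43 to 10.6 on combination arrays, 11.02 to 11.12 on tosedostat arrays, 10.14 to 10.59 on CHR-3996 arrays and 10.92 to 11.03 on untreated arrays. Within it SDC1, TNFRSF17, IRF4, XBP1, MZB1, JCHAIN, SLAMF7, CD79A and FGFR3 had lower group means than untreated cells in both groups that received CHR-3996. Only CD38, PRDM1 and NSD2 had higher ones. SDC1 was at 10.05 in the combination and 10.21 under CHR-3996, against 12.03 in untreated cells. CD38 was at 9.69 in the combination and 9.11 under CHR-3996, against 8.89 in untreated cells. The part of these shifts in the results was not tested.

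**Figure D1:**
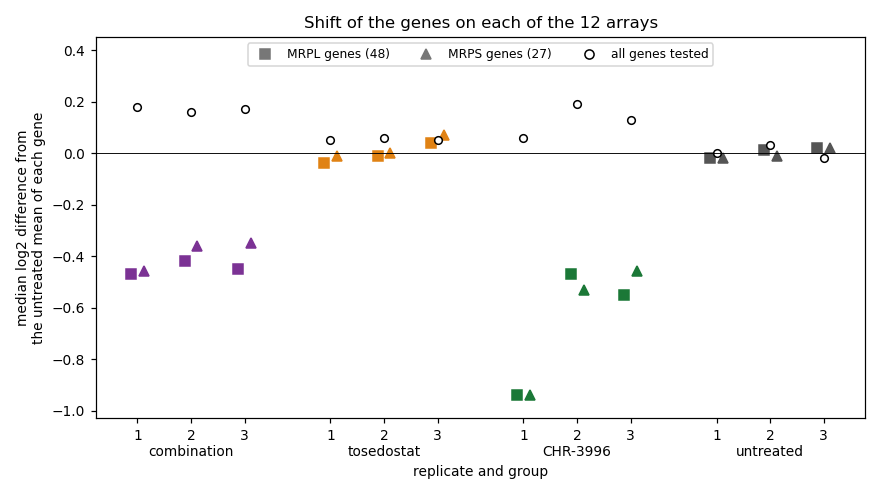
Median difference, on the log2 scale, between each of the 12 arrays and the untreated mean of each gene, for MRPL genes (squares), MRPS genes (triangles) and all genes tested (open circles). Both subunits sit below 0 on all 6 arrays that received CHR-3996, both lowest at -0.94 on CHR-3996 replicate 1, while all genes tested sit between 0.06 and 0.19 there.

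CHR-3996 alone lowered most mitochondrial ribosomal protein transcripts in both subunits. A gene was read by its brightest tested probe set and called at a Benjamini-Hochberg adjusted p under 0.05 in limma, fitted to all 12 arrays and adjusted over every probe set tested. In the large subunit 35 of 48 genes fell and none rose, with a median log2 fold change of -0.65. In the small subunit 19 of 27 fell and 1 rose, with a median of -0.63. Over all 15587 genes tested, 18% were called lower and 31.7% higher, with a median of 0.11. In the 6277 genes whose mean value lay in the same range as these genes, 8.35 to 12.55, 28% were lower. All 54 genes that fell had CHR-3996 arrays below every untreated array, as did 98.5% of all genes called lower (17.7% of all genes tested). At least 2-fold falls were called in 24 of the 75 genes, against 6.45% of all genes tested and 639 of the 6277 genes in the same value range. In bulk RNA, fewer cells with these transcripts and less of them per cell cannot be told apart, and the replicates are labelled biological with nothing to say whether they were separate cultures, so p-values measure the spread between these arrays. Without CHR-3996 replicate 1, 33 MRPL and 17 MRPS genes were called lower, with medians of -0.53 and -0.47. Quantile normalization and equal array medians moved the median of all genes to -0.08 and -0.11 and that of the 75 genes to -0.70 and -0.86, and called 40 and 43 MRPL genes and 20 and 24 MRPS genes lower. The genes called on the whole array split into 4946 higher and 2805 lower as deposited. These counts were 4229 and 4325 with quantiles equalised, and 3757 and 4283 with medians equalised.

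MRPL27 fell furthest. Its bacterial counterpart lies beside the centre where peptide bonds form. It had log2 values of 8.58, 9.18 and 9.02 under CHR-3996, against 10.86, 10.79 and 11.02 in untreated cells, for a log2 fold change of -1.96 (SE 0.18, limma adjusted p = 7.6e-06). The lowest array was CHR-3996 replicate 1, and the groups were far from overlapping. MRPL12, of the stalk that recruits translation factors and a protein also known to bind the mitochondrial RNA polymerase, had 8.98, 9.40 and 9.34 under CHR-3996, against 11.07, 10.99 and 10.94 in untreated cells. Its log2 fold change was -1.76 (SE 0.14, limma adjusted p = 2.4e-06), to 29.6% of the untreated level. MRPL4, which has a bacterial counterpart in the wall of the peptide exit tunnel, had 8.57, 8.79 and 8.51 under CHR-3996 and 10.19, 10.09 and 10.10 in untreated cells. Its log2 fold change was -1.50 (SE 0.11), and here replicate 1 was not the lowest array. MRPL58, a peptidyl-tRNA hydrolase that was first known as the ribosome rescue factor ICT1 and is built into the large subunit, had 9.10, 9.89 and 9.76 under CHR-3996 and 10.96, 10.94 and 10.98 in untreated cells. Its log2 fold change was -1.38 (SE 0.18), with 1 CHR-3996 array well below the other 2. MRPL54, specific to mitochondria, was at -1.47, MRPL17, which has a bacterial counterpart, at -1.40, and MRPL50 and MRPL21 at -1.31 each, MRPL50 being specific to mitochondria and MRPL21 shared with bacteria. The 8 other large subunit genes that fell at least 2-fold were MRPL18, MRPL46, MRPL48, MRPL11, MRPL34, MRPL9, MRPL49 and MRPL37, at -1.29 to -1.01.

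In the small subunit the largest falls were those of MRPS2 and MRPS7, which both have bacterial counterparts. MRPS2 had 8.68, 9.07 and 9.03 under CHR-3996 and 10.60, 10.59 and 10.49 in untreated cells, for a log2 fold change of -1.64 (SE 0.13, limma adjusted p = 2.3e-06). MRPS7 had 8.33, 8.65 and 8.68 under CHR-3996 and 10.03, 10.10 and 10.18 in untreated cells, for a log2 fold change of -1.55 (SE 0.13, limma adjusted p = 2.8e-06). Replicate 1 was the lowest CHR-3996 array for both genes, yet its distance to the other 2 was small beside the gap to the untreated arrays. MRPS12, the counterpart of the bacterial decoding protein whose mutations give streptomycin resistance, had 9.02, 9.38 and 9.20 under CHR-3996 and 10.53, 10.48 and 10.71 in untreated cells, for a log2 fold change of -1.37. MRPS26, MRPS25 and MRPS34, which are specific to mitochondria, were at -1.45, -1.20 and -1.09. MRPS15 and MRPS16, which have bacterial counterparts, were at -1.19 and -1.05, and all 5 had groups that did not overlap. Mutations of MRPS2, MRPS7, MRPS16, MRPS25 and MRPS34 are known causes of inherited respiratory chain deficiency.

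**Figure D2:**
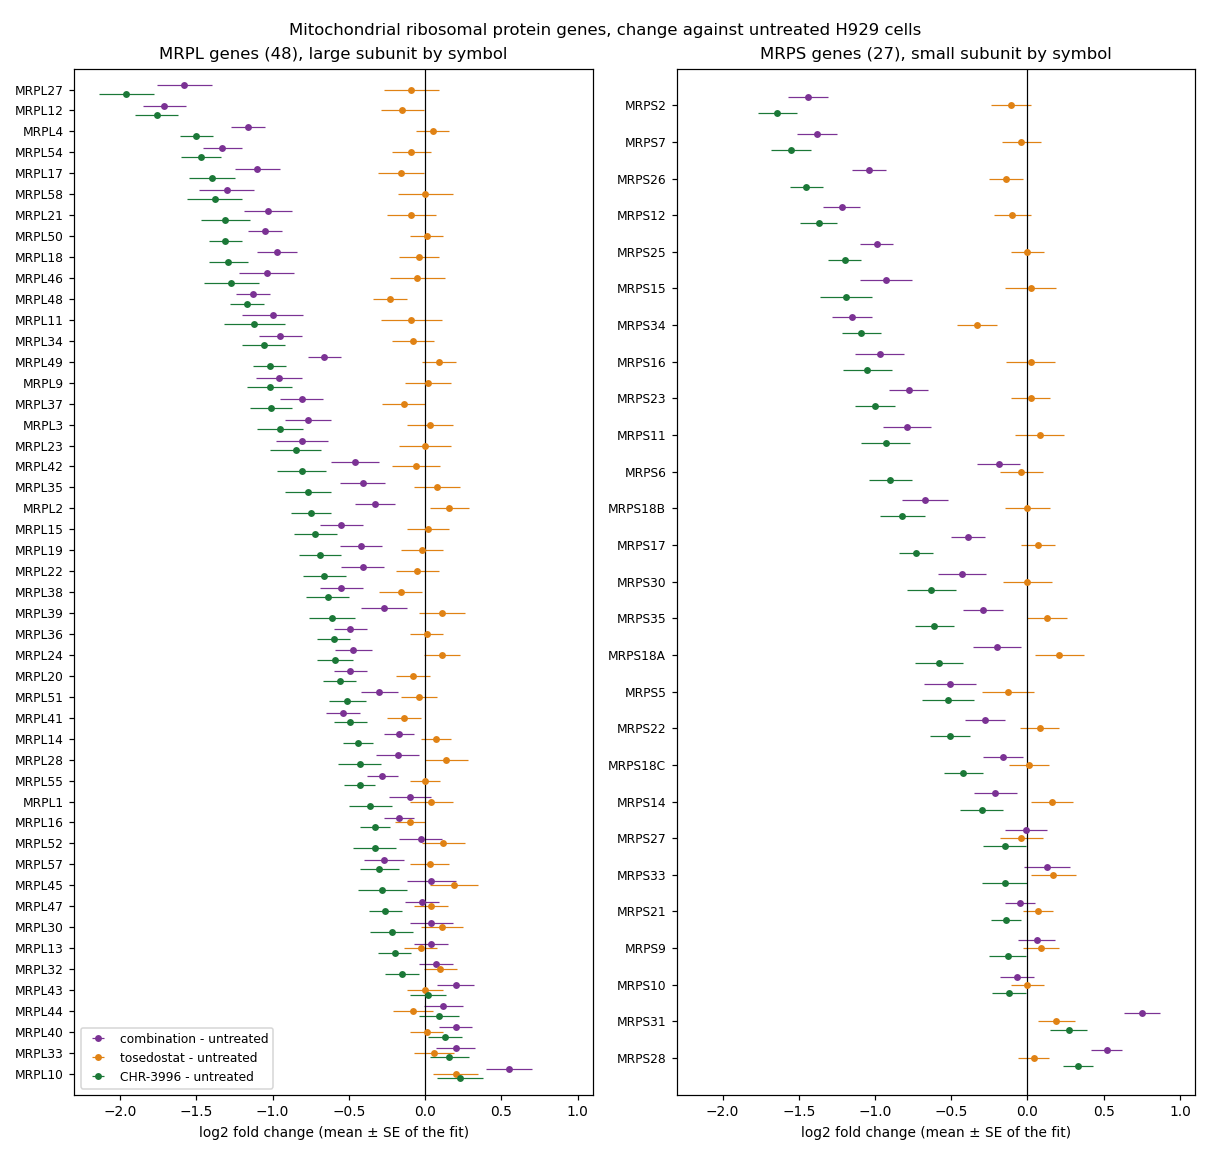
Log2 fold change against untreated cells of each of the 48 MRPL genes (left) and 27 MRPS genes (right), read by the brightest probe set, with bars of 1 standard error of the fit, for the combination, tosedostat and CHR-3996. Genes run by their change under CHR-3996, with MRPL27 at -1.96 at the top. The tosedostat points stay within -0.33 and 0.21, and in most rows the combination lies between CHR-3996 and 0.

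MRPS28, which has a bacterial counterpart in the protein S1, which binds incoming messenger RNA, was the only mitochondrial ribosomal protein gene called higher under CHR-3996. It had 10.54, 10.59 and 10.74 under CHR-3996 and 10.30, 10.26 and 10.31 in untreated cells, for a log2 fold change of 0.33 (SE 0.10, limma adjusted p = 0.0162). The groups did not overlap, but the rise was 0.28 and not called (limma adjusted p = 0.069) without CHR-3996 replicate 3, and 0.11 (limma adjusted p = 0.369) with arrays scaled to equal medians. Without CHR-3996 replicate 1, MRPL10 at 0.38 and MRPS31 at 0.37 were also called higher. The 20 genes that did not pass the test had log2 fold changes of -0.36 to 0.27. They were MRPL1, MRPL10, MRPL13, MRPL30, MRPL32, MRPL33, MRPL40, MRPL43, MRPL44, MRPL45, MRPL47, MRPL52 and MRPL57 in the large subunit, and MRPS9, MRPS10, MRPS14, MRPS21, MRPS27, MRPS31 and MRPS33 in the small. Within each subunit, genes that fell more than 2-fold thus stood beside genes whose brightest probe set had no called change. Of these, MRPL30, MRPL44 and MRPS10 each had another probe set called lower, and MRPL57 had 2. MRPL30, MRPL43, MRPS14 and MRPS27 had another called higher, as given below.

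The combination also lowered most of these transcripts. In the large subunit 29 of 48 genes fell and 1 rose, with a median of -0.46, and in the small subunit 14 of 27 fell and 2 rose, with a median of -0.39. Over all genes tested 15.9% were lower and 34.6% higher, with a median of 0.15, and of the 6277 genes in the same value range 23.9% were lower. At least 2-fold falls were called in 15 of the 75 genes, against 5.22% of all genes tested and 471 of those 6277. MRPL12 had 9.06, 9.42 and 9.38 in the combination and 11.07, 10.99 and 10.94 in untreated cells, for a log2 fold change of -1.71 (SE 0.14, limma adjusted p = 2.7e-06). MRPL27 had 8.96, 9.39 and 9.57 in the combination, a log2 fold change of -1.58 (SE 0.18) from the untreated values given above. For both genes replicate 1 was the lowest combination array. MRPL54 was at -1.33, MRPL58 at -1.30, MRPL4 at -1.16, MRPL48, specific to mitochondria, at -1.13, MRPL17 at -1.10 and MRPL50 at -1.05. MRPS2 had 8.99, 9.24 and 9.14 in the combination, a log2 fold change of -1.44 (SE 0.13) from the untreated values given above. MRPS7 had 8.69, 8.73 and 8.76 in the combination, a log2 fold change of -1.38 (SE 0.13). The 3 combination arrays lay close together for both genes. MRPS12 was at -1.22, MRPS34 at -1.15, MRPS26 at -1.04, MRPS25 at -0.99, MRPS16 at -0.97 and MRPS15 at -0.93. With quantile normalization and with equal medians the 75 genes had medians of -0.51 and -0.67, where all genes had -0.10 in both, and the genes called on the whole array split into 4236 higher and 4485 lower, or 3998 higher and 4150 lower, against 5395 higher and 2477 lower as deposited.

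In the combination 3 genes rose. MRPS31, a mitochondria-specific protein first described as an autoantigen in type 1 diabetes, had 10.21, 10.36 and 10.37 in the combination and 9.59, 9.64 and 9.45 in untreated cells, a rise of 0.75 (SE 0.12, limma adjusted p = 0.00031). Another MRPS31 probe set rose by 0.59, and the one left, with a standard error of 0.49, was at -0.12 (limma adjusted p = 0.869). With the mean of its probe sets MRPS31 was at 0.41 and not called (limma adjusted p = 0.0697). MRPL10, whose bacterial counterpart anchors the stalk that holds MRPL12, had 10.81, 10.98 and 11.15 in the combination and 10.33, 10.48 and 10.46 in untreated cells, a rise of 0.55 (SE 0.15, limma adjusted p = 0.011) that was 0.31 and not called (limma adjusted p = 0.109) with equal array medians. MRPS28 had 10.78, 10.76 and 10.90 in the combination and rose by 0.52 (SE 0.10, limma adjusted p = 0.0011). All 3 genes had combination arrays above every untreated array, and none of them was called by the call rule of the methods, which asks for at least 2-fold. MRPL10 and MRPL12, whose products sit together in the stalk, thus changed in opposite directions.

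**Figure D3:**
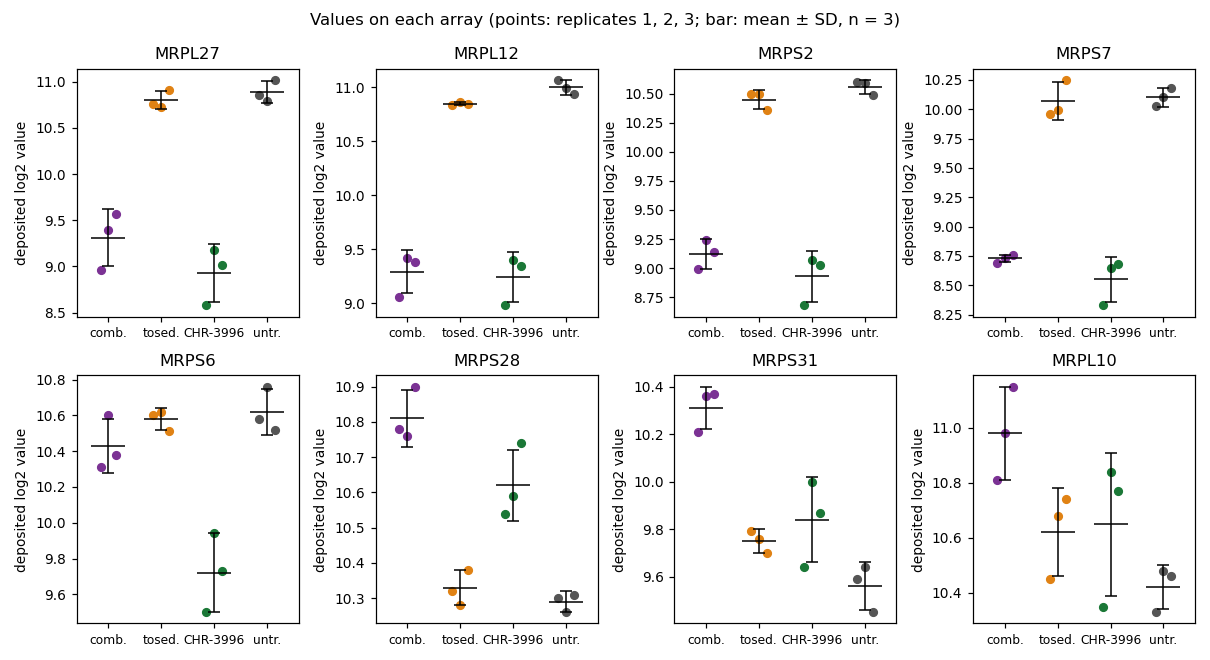
Deposited log2 values of 8 genes on each array (points, replicates 1 to 3 from left to right) with the mean and standard deviation (black, n = 3) in the combination, tosedostat, CHR-3996 and untreated groups. The axes differ between panels and do not start at 0. MRPL27, MRPL12, MRPS2 and MRPS7 are low in both groups that received CHR-3996, MRPS6 is lowest under CHR-3996 alone, and MRPS28, MRPS31 and MRPL10 are highest in the combination.

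Tosedostat alone gave no called change in any of the 75 genes in limma, where 4.8% of all genes tested were called in either direction. Log2 fold changes ran from -0.33 for MRPS34 to 0.21 for MRPS18A, with a median of 0.01 and a median standard error of 0.13. At an unadjusted p under 0.05, 1 of the 75 genes passed, against 18.6% of all genes tested. It was MRPS34, named after its values were seen, with arrays between 10.68 and 10.73 under tosedostat and between 10.96 and 11.12 in untreated cells (limma adjusted p = 0.213). MRPL27 had 10.76, 10.73 and 10.91 under tosedostat and 10.86, 10.79 and 11.02 in untreated cells. MRPS7 had 9.96, 9.99 and 10.25 under tosedostat and 10.03, 10.10 and 10.18 in untreated cells. The groups overlapped for both genes. In 22 of the 75 genes tosedostat arrays did not overlap untreated arrays, none of them called, against 29.3% of all genes tested.

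Set against tosedostat alone, the combination was lower in 28 MRPL genes and higher in none, with a median of -0.41, and lower in 15 and higher in 2 MRPS genes, with a median of -0.43. Over all genes tested 15.8% were lower and 30.4% higher, and of the 6277 genes in the same value range 24.4% were lower. The largest falls were MRPL12 at -1.56, MRPL27 at -1.49, MRPS7 at -1.34, MRPS2 at -1.33, MRPL58 at -1.30 and MRPL54 at -1.24. MRPL12 had 9.06, 9.42 and 9.38 in the combination and 10.84, 10.86 and 10.85 under tosedostat, so that the combination varied more between replicates than tosedostat did. MRPS31 rose by 0.56 and MRPS28 by 0.48, and MRPS28 was at 0.25 (limma adjusted p = 0.0624) with equal array medians. This comparison shares the combination arrays with the one against untreated cells, so they are not independent.

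Set against CHR-3996 alone, the combination gave no called change in these genes in limma, where 0.0577% of all genes tested were called in either direction. At an unadjusted p under 0.05, 15 of the 75 genes passed, against 11.1% of all genes tested. Of the 75 genes, 73 had a value above 0, with a median of 0.20, against 63.7% of all genes tested and a median of 0.07, and only MRPS34 at -0.06 and MRPL41 at -0.05 were below it. Without CHR-3996 replicate 1, which had the lowest values, 48 of the 75 genes were above 0 with a median of 0.08, against 52.9% of all genes and a median of 0.01. The count and the median thus moved with that array, and they were 74 and 0.29 without replicate 2 and 74 and 0.26 without replicate 3. The largest difference was that of MRPS6, which has a bacterial counterpart and is named after its values were seen. It had 10.31, 10.60 and 10.38 in the combination and 9.50, 9.94 and 9.73 under CHR-3996, a difference of 0.71 (SE 0.14, limma adjusted p = 0.144). The groups did not overlap, and against untreated cells MRPS6 was at -0.19 (adjusted p = 0.28) in the combination and fell by 0.90 (adjusted p = 0.00025) under CHR-3996.

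The interaction, which asks whether the effect of CHR-3996 differed when tosedostat was present, was called in none of the 75 genes in limma, with 0.276% of all genes tested called, and 2 genes passed at an unadjusted p under 0.05, against 11.2% of all genes tested. Its median was 0.20, against 0.01 over all genes, and 0.06 against -0.04 without CHR-3996 replicate 1. It was above 0 in 73 of the 75 genes, against 51.6% of all genes tested. Without that array it was above 0 in 50 of the 75, against 44.3%. The genes that passed at an unadjusted p under 0.05 were MRPS6 at 0.75 (limma adjusted p = 0.191) and MRPS26 at 0.56 (limma adjusted p = 0.227). Both are named after their values were seen. The median standard error of the interaction was 0.19, so a difference of that size in a single gene was within the error of the design.

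At the level of probe sets, 137 of the 140 were tested, and 3, of MRPL20, MRPL55 and MRPS26, were too dim, though each of these genes had another. Under CHR-3996, 82 of the 137 fell and 11 rose, against 15.7% lower and 29.4% higher of all probe sets tested. In the combination 66 fell and 16 rose, against 14.1% lower and 32% higher. Tested probe sets numbered 1 for 40 genes and several for 35. In 6 genes 1 probe set was called higher and another lower in the same comparison. MRPS30, an MRPS gene by name whose product is known to sit in the large subunit, was the plainest case. Its brightest probe set had 10.78, 11.46 and 11.39 under CHR-3996 and 11.86, 11.82 and 11.83 in untreated cells, for a log2 fold change of -0.63. Another had 9.66, 9.56 and 9.70 under CHR-3996 and 8.69, 8.54 and 8.20 in untreated cells, for a log2 fold change of 1.16 (SE 0.16, limma adjusted p = 0.0001), and the one left rose by 0.45. The groups did not overlap by either of the first 2 probe sets, which went opposite ways on the same arrays.

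MRPS23, specific to mitochondria, behaved likewise, at -0.78 by the brightest probe set and 0.78 by the other in the combination, and at -1.0 and 0.65 under CHR-3996. MRPL19, which has a bacterial counterpart, was at -0.69 by the brightest and at 0.70 by another probe set under CHR-3996. MRPL30 had 5 tested probe sets, of which 1 was lower at -1.07, 2 were higher at 0.39 and 0.86, and 2, the brightest among them, were not called under CHR-3996. MRPS18C was at -0.42 by the brightest and at 0.86 by another under CHR-3996, and MRPL50 at -1.05 by the brightest and at 0.54 by another in the combination. Both of these other probe sets were dim, since the 40th percentile of an array, used as filter, was 4.41 to 4.65. That of MRPS18C averaged 3.96 in untreated cells and 4.82 under CHR-3996, and passed the filter mainly through arrays that received CHR-3996. That of MRPL50 averaged 4.42 in untreated cells and 4.96 in the combination. Of the 11 probe sets that rose under CHR-3996, 10 were not the brightest of their gene, the exception being that of MRPS28. Others that rose beside a brightest probe set with no called change were those of MRPS14 at 1.13, MRPS27 at 1.12 and MRPL43 at 0.76. That of MRPS27 was also dim in untreated cells, at a mean of 4.84 against 5.96 under CHR-3996. That of MRPS14, a protein with a bacterial counterpart, had 9.04, 8.54 and 8.72 in the combination and 8.82, 8.68 and 8.68 under CHR-3996, against 7.59, 7.57 and 7.63 in untreated cells. The groups were well apart, while the brightest MRPS14 probe set was at -0.21 in the combination and -0.30 under CHR-3996 (limma adjusted p = 0.251 and 0.107). By the ending of the probe set name, which on this array type marks probes that also match related transcripts, 8 of 54 without such a mark, 2 of 69 ending in _s_at and 1 of 14 ending in _x_at rose under CHR-3996, and 27, 47 and 8 fell. The annotation gives the gene but not where on the transcript a probe set lies, and the gene-level counts above describe the brightest probe sets.

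**Figure D4:**
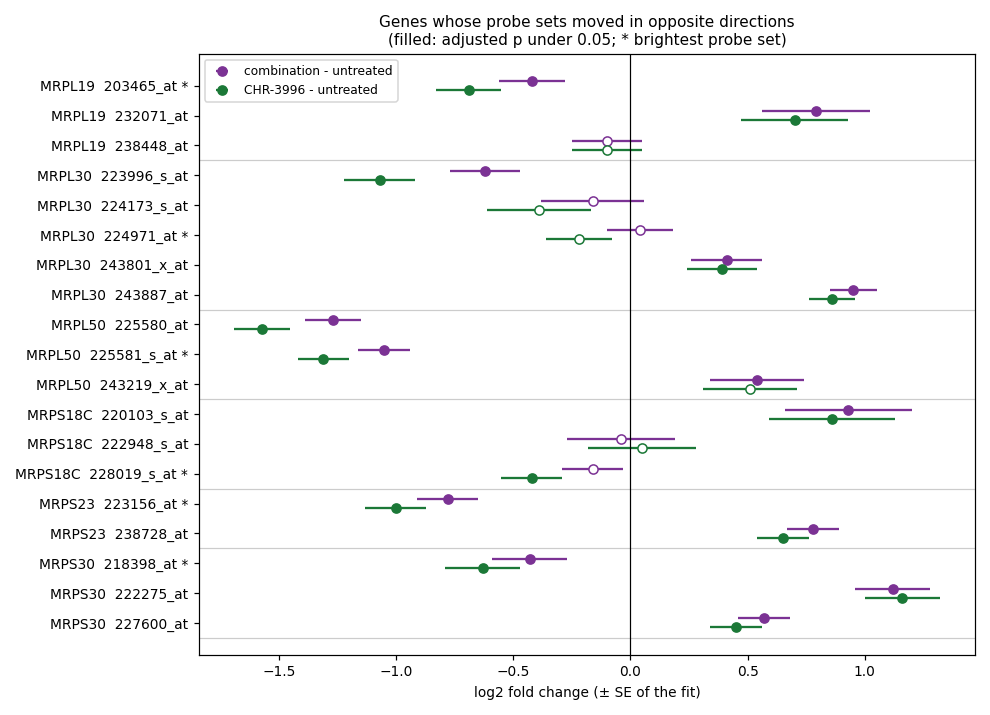
Log2 fold change against untreated cells, with 1 standard error of the fit, of every tested probe set of the 6 genes whose probe sets were called in opposite directions, for the combination and CHR-3996. Filled points passed an adjusted p under 0.05, and a star marks the brightest probe set. In MRPS30 under CHR-3996 the brightest lies at -0.63 while another lies at 1.16. The probe sets of MRPS18C and MRPL50 that rose are dim, near the filter limit.

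The split by symbol is not quite the split of the ribosome, since MRPS30 and MRPS18A are known to belong to the large subunit. With both moved there, 37 of 50 large subunit genes and 17 of 25 small subunit genes fell under CHR-3996, with medians of -0.64 and -0.73. Members were also counted by whether bacteria have a counterpart, with no test of the difference. In the large subunit 23 of 30 genes with a counterpart and 12 of 18 mitochondria-specific genes fell under CHR-3996, with medians of -0.68 and -0.63. In the small subunit the counts were 10 of 15, with MRPS28 higher, and 9 of 12, with medians of -0.73 and -0.62. Here the subunits followed the symbol, and MRPS18C was counted as having a counterpart, while its namesakes MRPS18A and MRPS18B were counted as mitochondria-specific. By the call rule of the methods, which asks for a change of at least 2-fold between linear means, a difference of more than 100 and p under 0.05, 14 MRPL and 8 MRPS genes were lower under CHR-3996, against 5.38% of all genes, and 10 and 5 in the combination, against 4.21%.

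Genes that work with the mitochondrial ribosome were described by lists. Shares over all genes tested, for comparison, were 18% lower and 31.7% higher under CHR-3996, and 15.9% and 34.6% in the combination. Of 5 genes listed as mitochondrial ribosomal proteins under other symbols, 4 fell under CHR-3996, with a list median of -0.74: GADD45GIP1, also called CRIF1, of the large subunit, at -1.45, KGD4, now regarded as a part of a dehydrogenase complex of the citric acid cycle, at -0.86, and PTCD3 and CHCHD1, of the small subunit, at -0.74 and -0.61. DAP3, a GTP-binding protein of the small subunit, was at -0.12 (limma adjusted p = 0.442), and in the combination the 4 genes that fell were at -1.27 to -0.53. Without KGD4, a choice made after seeing the data, 3 of 4 fell in either comparison, with medians of -0.59 in the combination and -0.68 under CHR-3996. Of 26 assembly factors 20 fell and 3 rose under CHR-3996, with a median of -0.73, and 16 fell and 3 rose in the combination, with a median of -0.59. The largest falls under CHR-3996 were RCC1L, a guanine nucleotide exchange factor, at -1.41, MRM3, which methylates large subunit RNA, at -1.33, RBFA, which matures the small subunit, at -1.30, and MTERF4, the partner of the methyltransferase NSUN4, at -1.25. The rises were YBEY, an RNA endonuclease, at 0.83, NOA1, a GTPase, at 0.46, and TFB1M, which dimethylates the small subunit RNA, at 0.39.

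Of 15 translation factors 5 fell (33.3%) and 3 rose (20%) under CHR-3996, with a median of -0.26. In the combination 4 fell (26.7%) and 2 rose (13.3%), with a median of -0.11. Of the 6277 genes in the value range of the mitochondrial ribosomal proteins, 28% were lower and 36.2% higher under CHR-3996. In the combination these shares were 23.9% and 40%. The share of translation factors that fell was thus near that of genes in this range, and the difference was not tested. TACO1, which activates translation of a cytochrome oxidase subunit, was at -1.19, SLIRP, which stabilises mitochondrial messenger RNA, and MTIF2, an initiation factor, at -0.57 each, and MTFMT, which formylates the initiator tRNA, at -0.51. The release factors MTRF1L and MTRF1 rose by 0.93 and 0.44, and the translational GTPase GUF1 by 0.37. Of 8 genes for transcription and replication of mitochondrial DNA, 5 fell under CHR-3996 with a median of -0.51, led by TFAM, which packages the DNA and starts transcription, at -0.95 and the helicase TWNK at -0.94, then POLRMT, the RNA polymerase, at -0.62 and POLG, the DNA polymerase, at -0.52. In the combination 2 of the 8 fell (25%), TWNK at -1.01 and TFAM at -0.88. POLG2, the accessory subunit of the DNA polymerase, rose by 0.43. The share that fell in the combination was near the 23.9% of genes in the same value range, and 15.9% of all genes tested fell.

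Among 11 regulators of nuclear genes for mitochondria, 6 fell and 2 rose under CHR-3996, with a median of -0.61. In the combination 7 fell and 3 rose, with a median of -0.53. Shares over all genes tested were 18% lower and 31.7% higher under CHR-3996, and 15.9% and 34.6% in the combination. Under CHR-3996 the coactivator PPRC1 was at -2.0 (SE 0.15, limma adjusted p = 2.1e-06), GABPB1, the subunit that lets GABP activate transcription from ETS sites, at -1.55, the coactivator PPARGC1B at -1.48 and MYC at -0.71. PPARGC1A, the related coactivator known for mitochondrial biogenesis in muscle and brown fat, rose by 2.94 (SE 0.24, limma adjusted p = 3e-06), and MAX, the partner of MYC, by 0.54. In the combination PPRC1 was at -1.85 and PPARGC1A at 2.56. GABPA, the DNA-binding subunit, was lower in the combination at -0.36 (limma adjusted p = 0.0406) and at -0.34 (limma adjusted p = 0.0535) under CHR-3996, and is named after its values were seen. Tosedostat alone gave no called change in any of these lists in limma, against 4.8% of all genes tested. At an unadjusted p under 0.05, 1 assembly factor and 1 gene of the transcription and replication list passed, against 18.6% of all genes tested.

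Cytosolic ribosomal proteins, which build the ribosome of the cytoplasm, were counted the same way. Under CHR-3996 3 of 56 genes were lower and 1 higher, with a median of -0.02, against 18% and 31.7% of all genes tested. In the combination 3 were lower and 2 higher, with a median of -0.03, against 15.9% and 34.6% of all genes tested. The genes of this list called under CHR-3996 were RPL39L at -0.68, RPS27L at -0.59, RPL10L at -0.41 and RPL36A at 1.20. The first 3 are paralogs whose probes may also bind the near-identical standard copies. Under tosedostat none was called in limma and 1 passed at an unadjusted p under 0.05, against 4.8% and 18.6% of all genes tested. The median value of the list in untreated cells was 13.63, near the highest value of any gene there, 14.08, and how far probe sets near the top of the scale can show a change was not tested.

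**Figure D5:**
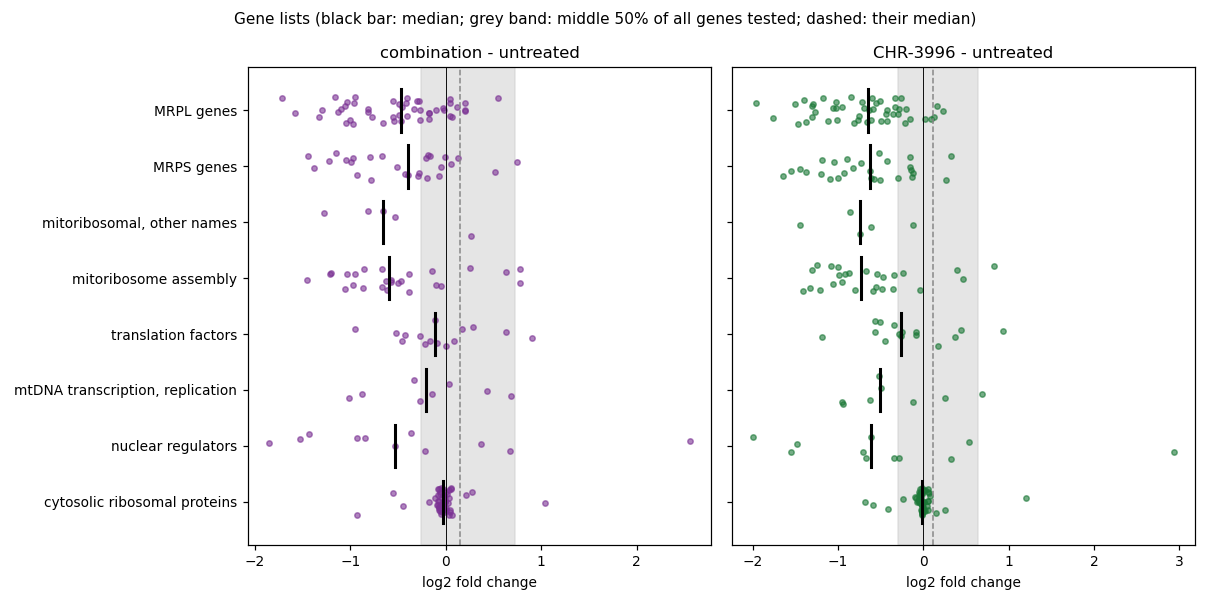
Log2 fold change against untreated cells of each tested gene in 8 lists (points, spread vertically for visibility), with the list median (black bar), for the combination (left) and CHR-3996 (right). The grey band holds the middle 50% of all genes tested and the dashed line is their median. MRPL, MRPS and assembly genes lie mostly left of the band, and cytosolic ribosomal proteins lie near 0, with a median of -0.02 under CHR-3996.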

How the data were processed

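The deposited values are log2 expression values that the authors obtained by normalising the arrays in dChip; the version, normalisation and probe summary behind them were not given in the sources used here. RNA was amplified in a 2-cycle biotin labelling reaction. After 62 control probe sets were left out, 36395 of 54613 probe sets were tested (those that exceeded an array's 40th percentile at least 3 times out of 12) with limma 3.58.1 in R 4.3.3 (lmFit, contrasts.fit, eBayes; 4 group means, 8 residual degrees of freedom, 6 contrasts), after a check on simulated data. Probe sets were named from the platform annotation, with 29161 tested ones giving 1 symbol, 1365 several and 5869 none. Plots and summaries used Python 3.11.15 and matplotlib 3.10.9. The interaction was the combination minus CHR-3996 minus tosedostat plus untreated. The number of arrays limits the precision.

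The members, gene lists and tests were chosen with earlier results of these data known, and the counts of lists carry no test of their own. Genes named were, for each group against untreated cells, the 8 highest and 8 lowest called genes per subunit whose arrays did not overlap, the 6 highest and 6 lowest called in the other contrasts, genes with probe sets called in opposite directions, and up to 4 called genes per direction in each list; levels of different probe sets were not ranked, since they are not comparable. Alternatives were other scalings, filters, variance estimates, probe set rules, the call rule of the methods, a replicate block and leaving out each array. Deviations from group means of same-numbered arrays correlated at 0.116 to 0.288 for combination with tosedostat, combination with CHR-3996, tosedostat with CHR-3996 and tosedostat with untreated, where every pair exceeded 0.1, and at 0.0358 to 0.168 for CHR-3996 or combination with untreated, where not every pair did. The reported values come from the fit without a block, and the block was an alternative.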

Additional observations from a re-analysis of the deposited data

Results flagged for a closer look

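Probe sets annotated to several genes were outside the counts above. A probe set shared by MRPS31P5, a pseudogene, and THSD1 was higher than in untreated cells, at 0.82 in the combination (limma adjusted p = 0.00082) and 0.86 under CHR-3996 (limma adjusted p = 0.00062). A probe set shared by MRPL53 and CCDC142 was higher in the combination, at 0.34 (limma adjusted p = 0.0476), and at 0.21 (adjusted p = 0.213) under CHR-3996. These were flagged because they are signals above untreated cells in probe sets that the fit tested but the member counts left out. Shared probe sets that fell are given under the other observations below.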

How the results depend on the processing

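The scalings are given with the results. By the call rule of the methods, 14 MRPL genes, 8 MRPS genes and 34 probe sets were called under CHR-3996, and 10, 5 and 23 in the combination. With a filter at the 60th percentile 1 probe set was called under tosedostat, and with a variance trend and robust estimation 1 MRPS gene and 1 probe set were called in the combination against CHR-3996. MRPS31 in the combination was at -0.12 by its most variable probe set. Leaving out 1 array gave 33 to 39 MRPL genes, 18 to 21 MRPS genes and 83 to 97 probe sets under CHR-3996, 25 to 33, 14 to 18 and 70 to 89 in the combination, 24 to 35, 14 to 20 and 63 to 87 in the combination against tosedostat, and 0 elsewhere. With the replicate block 36 MRPL and 20 MRPS genes were called under CHR-3996, 31 and 17 in the combination and 33 and 18 in the combination against tosedostat, with no change to a call of a named gene. Of 960 values of named genes under all alternatives, 945 kept direction and side of the threshold, 14 lost the call and 1 changed sign. MRPS28 lost its call under CHR-3996 with only the compared groups in the fit (limma adjusted p = 0.0761).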

Other observations

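MRPS24 was read only by a probe set shared with the readthrough transcript URGCP-MRPS24, which fell by 0.50 in the combination (limma adjusted p = 0.0108) and by 0.65 under CHR-3996 (limma adjusted p = 0.00235). A probe set shared by MRPL51 and SPTLC1 fell by 0.54 under CHR-3996 (limma adjusted p = 0.0443), and MRPL51's own brightest probe set fell by 0.51. The antisense transcript MRPL20-AS1 was at -0.32 under CHR-3996 (adjusted p = 0.0783), while MRPL20 fell by 0.56.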
